A study of Mus musculus with 8 samples.

Results

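Transcript levels of 10 genes of the JAK-STAT pathway were examined in primary mammary tumours with and without suppression of miR-21 activity. The genes were the kinases Jak1, Jak2 and Jak3, the transcription factors Stat3, Stat4, Stat5a, Stat5b and Stat6, and the feedback inhibitors Socs2 and Cish. They were taken by name, with earlier results of these data known, and are 10 of the 27179 genes in the deposited table.

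Cytokines and hormones signal through this pathway by drawing together receptor chains that carry Janus kinases, which phosphorylate the receptor and then the STAT proteins docked on it. Phosphorylated STATs pair, enter the nucleus and bind short palindromic DNA motifs. In the mammary gland, prolactin acts through JAK2 and STAT5 to drive secretory differentiation, and STAT3 acts in the regression of the gland after weaning, while in lymphocytes JAK1 and JAK3 serve the receptors that share the common gamma chain. CIS and SOCS2, the products of Cish and Socs2, are known STAT5-induced proteins that dampen receptor signalling. The activity of the pathway is set by phosphorylation, which counts of RNA do not measure.

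The tumours were grown from 4T1.13, a metastatic murine mammary carcinoma line, after orthotopic injection into BALB/c mice. The labels give 100000 cells and recovery at day 14, where the text of the study gives an earlier day and, for its other experiments with these tumours in BALB/c mice, a larger number of cells. Both groups carried the miArrest lentiviral vector with an mCherry reporter and a hygromycin resistance gene. In the miR-21-KD group (labelled miR21_KD) the H1 promoter of the vector drove a sponge RNA that captures mature miR-21, and in the vector control group (VC) it drove a scrambled RNA. Each line was a pool of single-cell clones, the mice were female and immunocompetent, and the labels give no age. RNA came from 4 whole tumours per group, so it held carcinoma cells together with the immune and stromal cells of the host, in which miR-21 was not targeted. In such bulk samples, fewer cells of a type and less RNA per cell cannot be told apart.

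The deposited values were counts of reads per gene, and 12134849 to 13592695 reads were counted per tumour. A count of 0 allows up to 3 counts, which is 0.221 to 0.245 CPM (counts scaled to library size, with TMM factors), and this limit covers counting error only. Mir21a, which encodes the precursor of miR-21, had 0 counts in all 8 tumours. The sponge captures the mature RNA, so counts of this gene would give no direct check of the knockdown at any level. The groups were compared with the quasi-likelihood test of edgeR over 14382 genes with enough counts, and adjusted p refers to all of them (threshold 0.05). Nothing in the labels says whether the 4 tumours of a group came from separate cultures of cells, and p-values measure the spread between these tumours.

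The molecule that was sequestered is shown here with its seed (bases 2 to 8) in capitals, since the seed is the stretch that pairs with target transcripts. It is the mature strand mmu-miR-21a-5p from RefSeq (GRCm38.p6, chr11:86584120-86584141, minus strand).
mmu-miR-21a-5p: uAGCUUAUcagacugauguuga
The complement of the seed, ATAAGCT, was looked for on the sense strand of the longest annotated 3′ UTR of each gene (GENCODE transcripts on GRCm38). Of the 10 genes, 1 contained it, against 1497 of 20979 genes (7.14%) overall. That gene was Stat3, with 2 matches in a 3′ UTR of 3701 bases, where the median 3′ UTR was 954 bases over all genes and 1168 bases over the 10 genes. Both are printed with the match in capitals, and neither is followed by A. The site at position 1581 of the UTR lies within the RefSeq boundaries of Stat3, and the site at position 2279 lies past the end that RefSeq gives the gene.
Stat3 site, chr11:100887201-100887230, minus strand: tttagttatacaATAAGCTgaacttataaa
Stat3 site, chr11:100886503-100886532, minus strand: ttctggagtcagATAAGCTccctaatggag
These matches are a description of the letters and not evidence of binding.

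All 10 genes passed the filter on low counts. Higher expression in miR-21-KD tumours was called for 5 of them, Socs2, Stat4, Stat5b, Jak1 and Jak3 (50%), against 19.6% of all tested genes. None was called lower, against 19.5% of all tested genes. At an unadjusted p under 0.05 edgeR gave 7 higher and 1 lower (Stat6), where 25.3% and 25.4% of all tested genes were higher and lower. DESeq2 called 7 higher and 1 lower at its adjusted threshold (24% and 21.7% of all genes), and limma-voom called 5 higher and 0 lower (20% and 20.4%). With scaling by library size alone, 5 were called higher and Stat6 lower (18.7% and 20.3%). Values of the 4 miR-21-KD tumours all lay above those of the 4 VC tumours for 5 genes (Jak1, Jak3, Stat3, Stat5b and Socs2), where 16.3% of tested genes did so, and all below for 1 gene (Stat6), where 18.9% did so. The median log2 fold change was 0.30 over the 10 genes and -0.01 over all tested genes. The count of 5 was 2 (Stat5b and Socs2) without VC replicate 2, 3 without VC replicate 3 and 3 without miR-21-KD replicate 4. Calls over all tested genes fell in the same fits, from 5626 to 3290, 2936 and 3366.

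**Figure D1:**
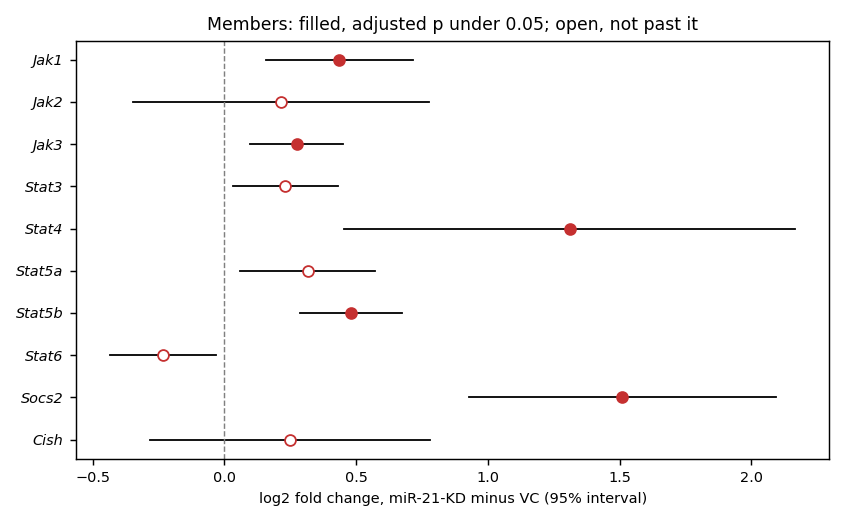
Log2 fold change (miR-21-KD minus VC, horizontal axis) of each of the 10 genes with its 95% confidence interval from edgeR; filled points have an adjusted p under 0.05 over all tested genes and open points do not. Socs2 at 1.51 and Stat4 at 1.31 lie furthest right, the other 3 called genes lie between 0.27 and 0.48, and Stat6 at -0.23 is the one gene left of 0.

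In size, most of these differences were moderate among all tested genes. The log2 fold change of Socs2 exceeded in size that of 92.6% of tested genes, and Stat4 exceeded 89.5%. Stat5b stood at 59.1% and Jak1 at 55.9%, and the other 6 genes stood between 31.6% and 44.4%.

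**Figure D2:**
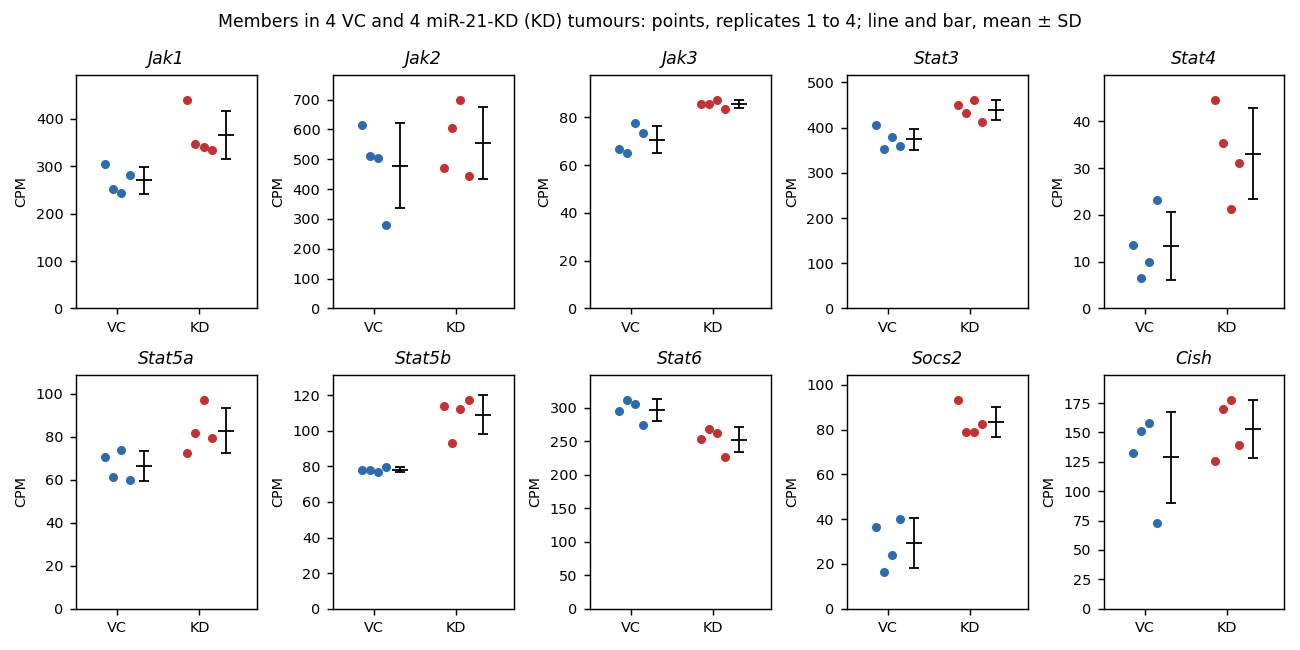
CPM (vertical axis, from 0) of each of the 10 genes in every tumour, with VC replicates 1 to 4 in blue and miR-21-KD replicates 1 to 4 in red from left to right; the line and bar beside each group are the mean and SD. For Socs2 the miR-21-KD tumours sit between 78.8 and 93.3 CPM and the VC tumours between 16.2 and 40.2, whereas the groups overlap for Jak2, Stat4, Stat5a and Cish.

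Among the kinases, Jak1 and Jak3 were higher in miR-21-KD tumours and Jak2 varied widely within both groups. Jak1 (Entrez 16451; GRCm38.p6 chr4:101151974-101265282) is used by the interferon, gp130 and common gamma chain receptors. It had 305, 253, 243 and 281 CPM in VC replicates 1 to 4 and 441, 348, 341 and 334 CPM in miR-21-KD replicates 1 to 4. The groups did not overlap, and miR-21-KD replicate 1 was the highest. The means were 270.3 ± 28.1 and 366 ± 50.2 CPM (mean ± SD, n = 4 per group), a log2 fold change of 0.44 (standard error, SE, 0.12, edgeR adjusted p = 0.0238). The call was lost without VC replicate 2 (adjusted p = 0.0711) and without VC replicate 3 (adjusted p = 0.0755), with log2 fold changes of 0.40 and 0.38.

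Jak3 (Entrez 16453; chr8:71676383-71690577), whose protein works with the common gamma chain and is found mainly in leucocytes, had 66.7, 65.2, 77.6 and 73.3 CPM in VC tumours. The miR-21-KD tumours had 85.8, 85.4, 87.4 and 83.5 CPM and were the more uniform group. All 4 lay above every VC tumour. The means were 70.7 ± 5.82 and 85.5 ± 1.60 CPM (mean ± SD, n = 4 per group), and the log2 fold change was 0.27 (SE 0.08, edgeR adjusted p = 0.0247). This call missed the threshold without a filter on low counts (adjusted p = 0.0626) and when VC replicate 1 (0.0539), VC replicate 2 (0.0848), miR-21-KD replicate 3 (0.0643) or miR-21-KD replicate 4 (0.0516) was left out.

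Jak2 (Entrez 16452; chr19:29251803-29313095) encodes the kinase of the prolactin, growth hormone and GM-CSF receptors. VC tumours had 616, 512, 505 and 279 CPM and miR-21-KD tumours 471, 604, 700.1 and 443 CPM. The ranges overlapped, with VC replicate 4 the lowest of all 8. The means of 478 ± 142 and 555 ± 120 CPM (mean ± SD, n = 4 per group) differed by 0.21 on the log2 scale (SE 0.25, edgeR adjusted p = 0.511), with a 95% interval from -0.35 to 0.78 that still holds a fall and a rise. Without VC replicate 4 the difference was 0.02 (adjusted p = 0.935).

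Of the 5 STAT genes, Stat4 and Stat5b were called higher, while Stat3, Stat5a and Stat6 lay near the threshold. Stat5b (Entrez 20851; chr11:100780731-100859004) and Stat5a (Entrez 20850; chr11:100859351-100885169) encode closely related STAT5 proteins, and Stat3 (Entrez 20848; chr11:100886806-100939594) follows them directly. The 3 genes fill a stretch of 158.9 kb on chromosome 11, with 346 bases between Stat5b and Stat5a and 1636 bases between Stat5a and Stat3.

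Stat5b had 78.1, 78.1, 76.7 and 79.9 CPM in VC tumours and 114, 93.4, 112 and 117 CPM in miR-21-KD tumours. The VC tumours hardly differed among themselves, and every miR-21-KD tumour lay above them. The mean rose from 78.2 ± 1.30 to 109 ± 10.7 CPM (mean ± SD, n = 4 per group), a log2 fold change of 0.48 (SE 0.09, edgeR adjusted p = 0.00700). This call held under all 16 other settings and left-out tumours, with an adjusted p of at most 0.0286.

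Stat5a had 70.7, 61.3, 73.7 and 59.9 CPM in VC tumours and 72.3, 81.9, 97.1 and 79.4 CPM in miR-21-KD tumours. The groups overlapped only through miR-21-KD replicate 1, which lay below VC replicate 3. With means of 66.4 ± 6.83 and 82.7 ± 10.4 CPM (mean ± SD, n = 4 per group), the log2 fold change of 0.32 (SE 0.11) just missed the threshold (adjusted p = 0.0528, edgeR). With the replicate number as a block it passed (adjusted p = 0.0352), as it did with DESeq2 (0.0274), with RLE (0.0456) or upper-quartile (0.0295) scaling, with a minimum of 10 counts per tumour (0.0311) and without miR-21-KD replicate 1 (0.0434).

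Whether the balance of both STAT5 genes differed was examined by the ratio of their counts within a tumour, which needs no scaling. Stat5a counts per Stat5b count were 0.906, 0.785, 0.961 and 0.750 in VC tumours and 0.636, 0.877, 0.867 and 0.677 in miR-21-KD tumours. These ranges overlapped, and the mean log2 ratio was 0.16 lower in miR-21-KD tumours (a difference of -0.16, p = 0.314, exact two-sided permutation test, n = 4 each, smallest p possible 0.0286). The exon sequences of the pair share 608 windows of 50 bases, which is 15.3% of those of Stat5a and 11.1% of those of Stat5b. For windows of 100 bases the shares are 6.68% and 4.87%. Reads within shared stretches could be assigned to either gene or to none, depending on how the authors treated reads with several matches.

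Stat3, activated by the IL-6, IL-10 and leptin receptors, had 405, 353, 379 and 359 CPM in VC tumours and 449, 433, 462 and 412 CPM in miR-21-KD tumours. Here the groups did not overlap, though the gap between VC replicate 1 and miR-21-KD replicate 4 was small. Mean levels of 374 ± 23.8 and 439 ± 21.7 CPM (mean ± SD, n = 4 per group) gave a log2 fold change of 0.23 (SE 0.09, edgeR adjusted p = 0.0645), which did not pass. It passed with DESeq2 (adjusted p = 0.00561), upper-quartile scaling (0.0341) and a minimum of 10 counts per tumour (0.0359). Stat3 is the gene whose 3′ UTR holds both printed matches to the miR-21 seed, and its difference exceeded in size that of 34% of tested genes.

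Stat6 (Entrez 20852; chr10:127642955-127660987), the STAT of the IL-4 and IL-13 receptors, was the one gene with lower values in miR-21-KD tumours. VC tumours had 295, 312, 306 and 274 CPM and miR-21-KD tumours 253, 268, 262 and 226 CPM. No miR-21-KD tumour reached the lowest VC tumour, replicate 4. The means were 297 ± 16.8 and 252 ± 18.5 CPM (mean ± SD, n = 4 per group), and the log2 fold change of -0.23 (SE 0.09) missed the threshold (adjusted p = 0.0636, edgeR). It passed with the replicate block (adjusted p = 0.0425), DESeq2 (0.0304), scaling by library size alone (0.0488) and without miR-21-KD replicate 2 (0.0432).

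Stat4 (Entrez 20849; chr1:51987106-52107189) transmits the IL-12 signal in T and NK cells and was the least expressed of the 10 genes. Its values were 13.6, 6.54, 10.0 and 23.2 CPM in VC tumours and 44.6, 35.5, 21.3 and 31.0 CPM in miR-21-KD tumours. VC replicate 4 lay above miR-21-KD replicate 3, and otherwise the groups were apart. The mean rose from 13.4 ± 7.19 to 33.1 ± 9.68 CPM (mean ± SD, n = 4 per group), a log2 fold change of 1.31 (SE 0.38, edgeR adjusted p = 0.0263). The call was lost without VC replicate 2 (adjusted p = 0.0531), VC replicate 3 (0.0750), miR-21-KD replicate 1 (0.0667) or miR-21-KD replicate 4 (0.0565), with log2 fold changes from 1.08 to 1.34.

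Ptprc and several markers of T and NK cells were also called higher in miR-21-KD tumours, whereas edgeR called no B cell or neutrophil marker. Ptprc, which encodes the pan-leucocyte protein CD45, rose from 189 ± 68.2 to 375 ± 75.6 CPM (mean ± SD, n = 4 per group; log2 fold change 0.99, SE 0.25, edgeR adjusted p = 0.0180). The summed level of 10 T cell markers was 50.5 to 185 CPM in VC and 161 to 336 CPM in miR-21-KD tumours, with 7 of 10 called higher, and that of 6 NK cell markers was 9.73 to 43.3 and 39.7 to 78.7 CPM, with 3 of 6 called higher. VC replicate 4, the VC tumour with the most Stat4, gave the top of both VC ranges, and the other 3 VC tumours reached 111 CPM of T cell and 21.8 CPM of NK cell markers. It also held 154 CPM of B cell markers, where the other VC tumours had 1.99 to 5.38. Of 4 tested B cell markers 0 were called by edgeR, by DESeq2 or by limma-voom or had an unadjusted p under 0.05. The sums over 6 neutrophil markers were 266 to 743 CPM in VC and 346 to 606 CPM in miR-21-KD tumours. Of the 5 that were tested, 0 were called by edgeR, 2 had an unadjusted p under 0.05, and DESeq2 and limma-voom called 2 and 1. No marker of these lists was at 0 in all tumours. The part of these cells in the results for Stat4 and Jak3 was not tested. Both genes were also set against Ptprc within each tumour.

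Per Ptprc count, Stat4 counts were 0.0674, 0.0498, 0.0714 and 0.0832 in VC tumours and 0.0927, 0.111, 0.0663 and 0.0826 in miR-21-KD tumours. The groups overlapped, and the mean log2 ratio was 0.37 higher in miR-21-KD tumours (p = 0.2, exact two-sided permutation test, n = 4 each). For Jak3 the ratios were 0.328, 0.494, 0.552 and 0.262 in VC tumours and 0.178, 0.267, 0.271 and 0.222 in miR-21-KD tumours. Every miR-21-KD tumour lay below VC replicates 1 to 3, while VC replicate 4 lay within their range. Between same-numbered tumours the ratio was lower in the miR-21-KD tumour in 4 of 4 pairs. The difference in mean log2 ratio was -0.76 and did not pass (p = 0.0857, exact two-sided permutation test; p = 0.125 in the exact sign-flip test over pairs, the smallest it can give). With a tumour left out it ranged from -0.95 to -0.59, and the p passed only without VC replicate 4, whose removal by itself leaves groups that do not overlap.

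**Figure D3:**
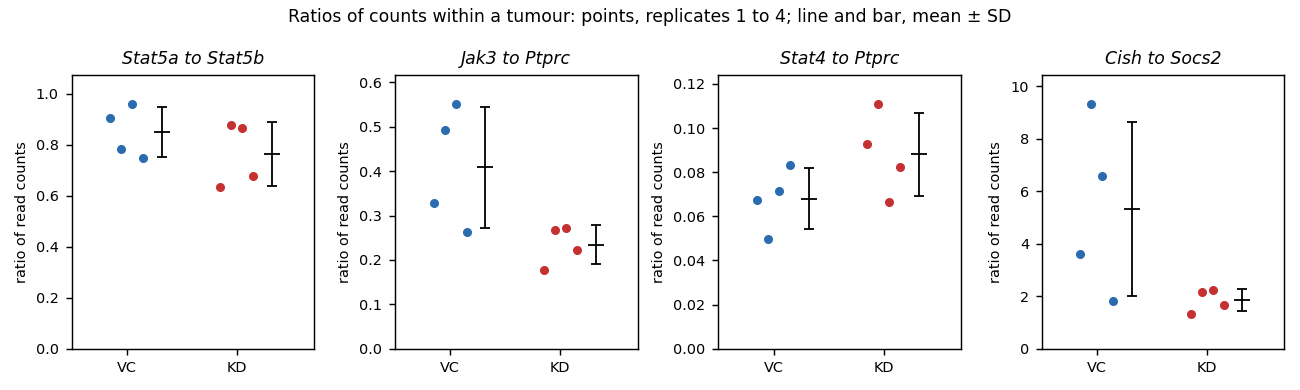
Ratio of read counts between the genes named above each panel (vertical axis, from 0) within every tumour, VC replicates 1 to 4 in blue and miR-21-KD replicates 1 to 4 in red, with the mean and SD beside each group. Jak3 per Ptprc and Cish per Socs2 are low and close together in the miR-21-KD tumours (0.178 to 0.271 and 1.34 to 2.25), and VC replicate 4 falls among them in both panels.

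Of the feedback inhibitors, Socs2 was called higher and Cish was not called. Socs2 (Entrez 216233; chr10:95383903-95417321) encodes an inhibitor of growth hormone receptor signalling and had the largest rise of the 10 genes. It had 36.7, 16.2, 24.0 and 40.2 CPM in VC tumours and 93.3, 78.8, 78.9 and 82.7 CPM in miR-21-KD tumours. Every miR-21-KD tumour was far above the highest VC tumour. The mean rose from 29.3 ± 11.2 to 83.4 ± 6.82 CPM (mean ± SD, n = 4 per group), a 2.85-fold change and a log2 fold change of 1.51 (SE 0.26, edgeR adjusted p = 0.00665). It held under all 16 other settings and left-out tumours, with an adjusted p of at most 0.0266.

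Cish (Entrez 12700; chr9:107296659-107302784) encodes CIS, which competes with STAT5 for receptor docking sites. Its values were 132, 152, 158 and 72.7 CPM in VC tumours and 125, 170.1, 178 and 139 CPM in miR-21-KD tumours. The groups overlapped, and VC replicate 4 was by itself at the bottom. The means were 129 ± 38.9 and 153 ± 24.9 CPM (mean ± SD, n = 4 per group), and the log2 fold change of 0.25 (SE 0.23, 95% interval -0.28 to 0.78) did not pass (adjusted p = 0.415, edgeR). Without VC replicate 4 it was 0.05 (adjusted p = 0.800).

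Counts of Cish per count of Socs2 were 3.61, 9.33, 6.59 and 1.81 in VC tumours and 1.34, 2.16, 2.25 and 1.68 in miR-21-KD tumours. The ratio varied widely among VC tumours, and the lowest of them, replicate 4, lay within the range of the miR-21-KD tumours. It was lower in the miR-21-KD tumour in 4 of 4 same-numbered pairs. The mean log2 ratio differed by -1.30 and did not pass (p = 0.0857, exact two-sided permutation test, n = 4 each; p = 0.125 in the exact sign-flip test over pairs, the smallest it can give). With a tumour left out the difference ranged from -1.73 to -0.94, and again the p passed only without VC replicate 4, whose removal leaves no overlap.

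Since STAT5 dimers bind TTCNNNGAA, this motif was looked for in a window around annotated starts (250 bases before to 50 after, RefSeq, GRCm38.p6). The motif is its own reverse complement, so a match counts on both strands. A window was at hand for 9 of the 10 genes, 12 windows in all. It was found for 1 gene, Cish, with 2 matches, where 2726 of 32851 windows (8.3%) held at least 1 match and 0.457% held 2 or more. The known STAT6 motif, with a spacer that is a base longer, was found in none of the 12 windows and in 6.95% of all windows. The stretch of Cish from 60 bases before to 20 bases after the start (chr9:107296599-107296678, plus strand) is shown with both motifs in capitals, because Cish is the known STAT5 target among the 10 genes for which a window could be read.
Cish start: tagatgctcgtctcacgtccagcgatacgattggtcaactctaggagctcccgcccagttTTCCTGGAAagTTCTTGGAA
The first motif lies at chr9:107296659-107296667 and the second at chr9:107296670-107296678.

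For a comparison of levels between genes, CPM was divided by the length of the exons of each gene in kb. In VC tumours, the order of mean CPM per kb was Jak2 (95.1), Stat6 (78.6), Stat3 (60.0), Jak1 (55.1), Cish (35.3), Stat5a (16.7), Jak3 (15.8), Stat5b (14.1), Socs2 (10.8) and Stat4 (4.24). Jak2, from 55.5 to 122.5 CPM per kb across VC tumours, overlapped with Stat6, Stat3 and Jak1. Stat3 overlapped with Jak1, Stat5a with Jak3, Stat5b with Socs2, Jak3 with Socs2 and Socs2 with Stat4. In miR-21-KD tumours Socs2 reached 30.9 CPM per kb (29.2 to 34.6), above Stat5a (20.8; 18.2 to 24.5), Stat5b (19.7; 16.9 to 21.2) and Jak3 (19.2; 18.7 to 19.6), whose means had all been above that of Socs2 in VC tumours. Stat4 remained lowest, at 10.5 CPM per kb. At the top, Jak2 (110.2), Jak1 (74.6), Stat3 (70.5) and Stat6 (66.9) each overlapped in range with the next.

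The rest of the pathway was described with 122 genes listed by role, also with earlier results of these data known, and 106 of them were tested. Of these, 49 (46.2%) were called higher and 9 (8.49%) lower, against the 19.6% and 19.5% of all tested genes given above, and the median log2 fold change was 0.52. Without VC replicate 2, VC replicate 3 or miR-21-KD replicate 4, the 58 calls fell to 37, 34 and 37, which is 63.8%, 58.6% and 63.8% of them, and those over all tested genes fell to 58.5%, 52.2% and 59.8%.

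**Figure D4:**
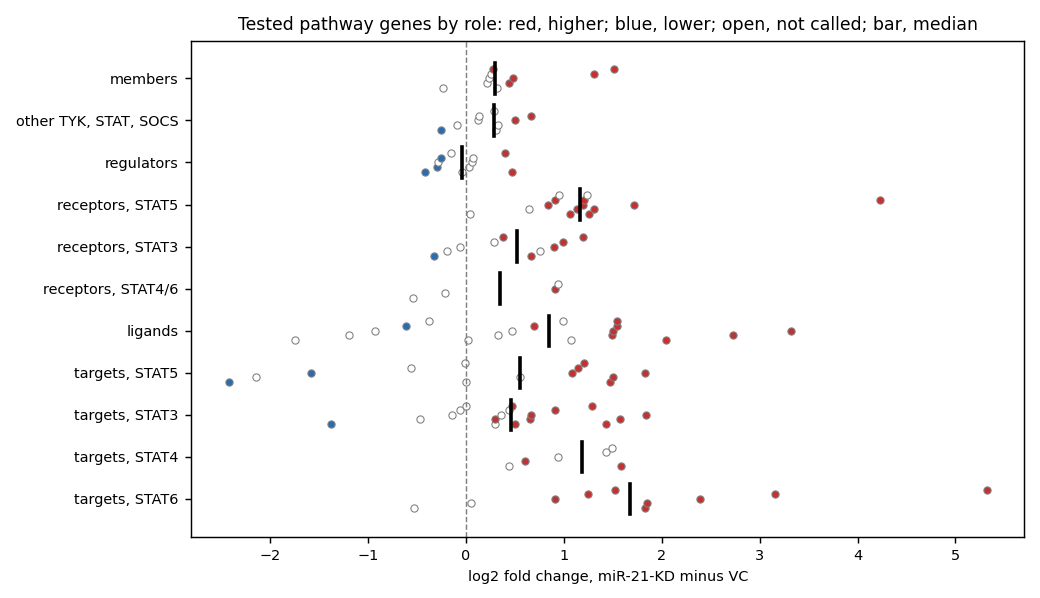
Log2 fold change (miR-21-KD minus VC, horizontal axis) of each tested gene in 11 lists by role; red is called higher, blue called lower, open not called, and the black bar is the list's median. Medians run from -0.04 for the regulators to 1.67 for the reported STAT6 targets, and 0.30 for the 10 genes of the top line lies toward the lower end.

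Receptors that feed the STAT5 proteins were called higher in 10 of 14 tested cases, and all 14 log2 fold changes were above 0. The prolactin receptor gene Prlr had 12.5, 1.60, 3.31 and 5.23 CPM in VC tumours and 113, 51.6, 126 and 138 CPM in miR-21-KD tumours. The groups did not overlap, and even the lowest miR-21-KD tumour, replicate 2, was well above VC replicate 1. The log2 fold change was 4.23 (SE 0.58, edgeR adjusted p = 0.00523). Its hormone, prolactin (Prl), had 0 counts in all 8 tumours. The growth hormone receptor Ghr, which uses the same JAK2-STAT5 route, had 75.4 ± 3.19 and 77.7 ± 11.3 CPM (mean ± SD, n = 4 per group), a log2 fold change of 0.04 (95% interval -0.20 to 0.28, adjusted p = 0.766, edgeR).

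The common gamma chain gene Il2rg, whose protein is the partner of JAK3, rose from 124 ± 35.3 to 222 ± 25.1 CPM (mean ± SD, n = 4 per group; log2 fold change 0.84, adjusted p = 0.0141, edgeR). Il7r, the IL-7 receptor chain that pairs with it, rose by 1.71 on the log2 scale (adjusted p = 0.00779). Csf2rb2 and its close paralog Csf2rb, which encode beta chains of the IL-3 receptor, had log2 fold changes of 1.26 and 1.13 (adjusted p = 0.00928 and 0.0141). Reads may be split between these near-identical genes. All 4 rises stood beside the values of Ptprc and the T and NK cell markers given for Stat4 and Jak3. Those of Csf2rb2 and Csf2rb also stood beside macrophage markers, of which 8 of 10 were called higher. Macrophage marker sums were 2952 to 4266 CPM in VC and 5839 to 9088 CPM in miR-21-KD tumours. The dependence of the 4 rises on any of these cells was not tested.

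Epithelial markers stood beside the result for Prlr, which mammary epithelium expresses. Of 7 such markers, 5 were called higher (Epcam, Cdh1, Krt19, Krt14 and Krt5, log2 fold changes 1.52 to 3.60) and 1 lower (Krt18, -1.15). Krt8 was not called (-0.88), and none of the 7 was at 0 in all tumours. Their summed level was 1290 to 2222 CPM in VC and 1034 to 1949 CPM in miR-21-KD tumours. In VC tumours most of this sum came from Krt8 and Krt18 (means 808 and 1022 CPM), whose miR-21-KD means were 439 and 460 CPM. The sum thus mixes markers that moved in opposite directions. Adipocyte markers were called higher in 5 of 5 cases, with sums of 85.2 to 320 and 429 to 1124 CPM. Fibroblast markers were called higher in 4 of 6, with sums of 1652 to 3835 and 5601 to 11910 CPM. Their part in the results was not tested.

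**Figure D5:**
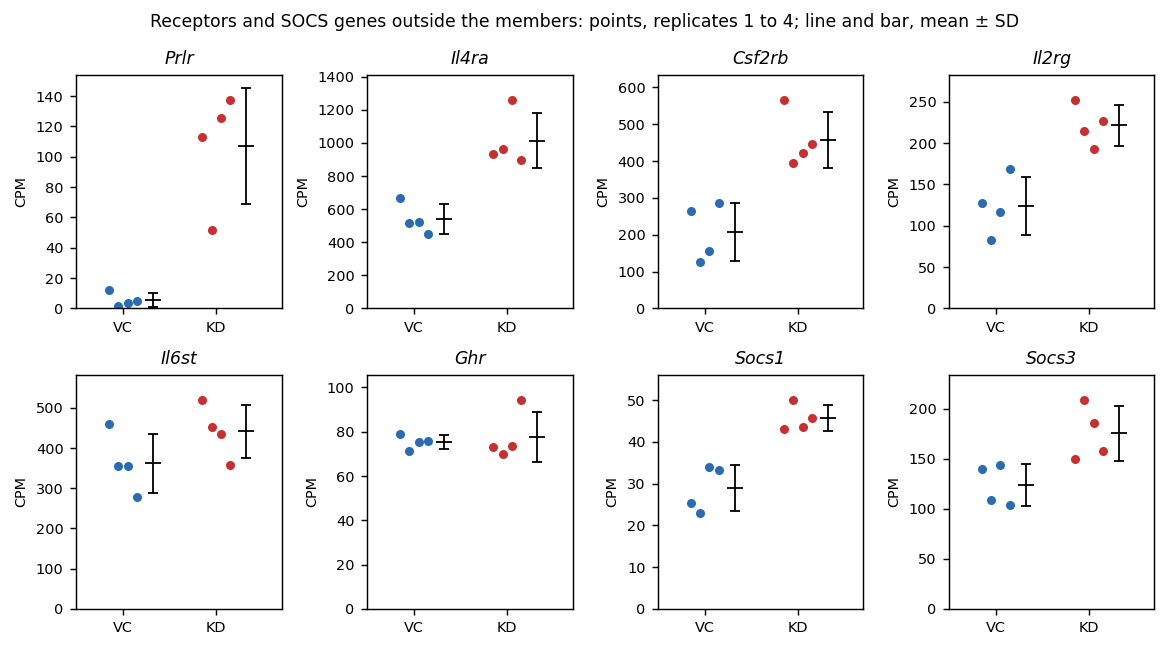
CPM (vertical axis, from 0) of 6 receptor genes and the inhibitors Socs1 and Socs3 in every tumour, VC replicates 1 to 4 in blue and miR-21-KD replicates 1 to 4 in red, with the mean and SD beside each group. The groups do not overlap for Prlr, Il4ra, Csf2rb, Il2rg, Socs1 and Socs3, and they overlap for Il6st and Ghr.

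STAT3-coupled receptors were called higher in 5 of 10 tested cases and lower in 1. Il6st, which encodes gp130, the shared chain of the IL-6 family, had 362 ± 74.0 and 442 ± 66.2 CPM (mean ± SD, n = 4 per group), a log2 fold change of 0.29 that was not called (adjusted p = 0.196, edgeR) but passed with the replicate block (0.0315). Il11ra1, Il21r and Il10ra, chains of the IL-11, IL-21 and IL-10 receptors, rose by 1.20, 0.90 and 0.99 on the log2 scale (adjusted p = 0.0100, 0.0183 and 0.0210). The IL-6 binding chain Il6ra had a log2 fold change of -0.33 (adjusted p = 0.0379). Calls for Il21r, Il10ra and Il6ra did not hold for every left-out tumour, with adjusted p up to 0.0531, 0.0608 and 0.0990, and Il6ra was not called with upper-quartile scaling (0.0560) or a minimum of 10 counts per tumour (0.0668).

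For the STAT4 and STAT6 receptors, 1 of 4 was called (25% higher, near the 19.6% of all tested genes). Il4ra, the IL-4 receptor alpha chain that recruits STAT6, rose from 539.5 ± 91.9 to 1014 ± 167 CPM (mean ± SD, n = 4 per group; log2 fold change 0.91, adjusted p = 0.00694, edgeR), while Stat6 itself had the lower values described above. Il12rb1, a chain of the IL-12 receptor upstream of STAT4, had 10.6 ± 6.84 and 9.11 ± 1.49 CPM (mean ± SD, n = 4 per group; log2 fold change -0.22, adjusted p = 0.694, edgeR), and its direction turned with limma-voom (0.00076) and without VC replicate 4 (0.28).

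Cytokine genes of these receptors were called higher in 8 of 18 tested cases and lower in 1, and 2 of the 29 listed (Prl and Il9) had no count in any tumour. Il5, encoding an eosinophil growth factor, rose from 0.884 ± 0.596 to 8.96 ± 4.48 CPM (mean ± SD, n = 4 per group; log2 fold change 3.32, adjusted p = 0.00673, edgeR). Lep, the leptin gene and also an adipocyte marker, rose by 2.73 on the log2 scale (adjusted p = 0.00680) and Osm, encoding the gp130 ligand oncostatin M, by 1.50 (adjusted p = 0.00735). Ctf1, encoding cardiotrophin 1, had a log2 fold change of -0.61 (adjusted p = 0.0446), which did not hold with upper-quartile scaling (0.0521), without a filter on low counts (0.0637) or for 6 of the 8 left-out tumours.

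Shares called among the other family members (22.2% higher, 11.1% lower) and the regulators (18.2% higher, 27.3% lower) were near those of all tested genes (19.6% and 19.5%). Among 9 further TYK, STAT and SOCS genes, Socs1 and Socs3, inhibitors induced by interferon and IL-6 family signals, were called higher (log2 fold changes 0.66 and 0.50, adjusted p = 0.0105 and 0.0304, edgeR) and Socs7 lower (-0.25, adjusted p = 0.0339). With a tumour left out the adjusted p reached 0.0321 for Socs1, 0.0888 for Socs3 and 0.0929 for Socs7, and Socs7 was also lost with upper-quartile scaling (0.0597) and a minimum of 10 counts per tumour (0.0653). Of 11 phosphatases, PIAS proteins and adaptors, Ptpn1 and Ptpn2, phosphatases that act on JAKs and STATs, were called higher (0.47 and 0.40, adjusted p = 0.0148 and 0.0205), and were not called without VC replicate 3 (Ptpn1, 0.0513) or without VC replicate 2 or miR-21-KD replicate 3 (Ptpn2, up to 0.0573). Pias2, Stam2 and Ptpn11 were called lower (-0.30, -0.42 and -0.26, adjusted p = 0.0295, 0.0360 and 0.0461), and each of these calls was lost for 6 of the 8 left-out tumours (adjusted p up to 0.0854, 0.0934 and 0.121). The call of Ptpn11 was also lost with RLE (0.0556) and upper-quartile (0.0583) scaling, without a filter on low counts (0.0612) and with a minimum of 10 counts per tumour (0.0756).

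Genes reported as STAT targets were counted in the same way. STAT5 targets were called higher in 6 of 13 tested cases and lower in 2, and STAT3 targets in 10 and 1 of 18. STAT4 targets were called higher in 2 of 6, and STAT6 targets in 8 of 10, beside 19.6% of all tested genes called higher and 19.5% lower. Some genes, such as Il4ra and Socs3, stand in several lists. Among STAT5 targets the survival kinase Pim1 and the growth factor Igf1 rose (log2 fold changes 1.14 and 1.47, adjusted p = 0.0103 and 0.0119, edgeR). Ccnd1, which encodes cyclin D1, fell by 1.58 on the log2 scale (adjusted p = 0.0309), a call that was lost for 4 left-out tumours with adjusted p up to 0.0836. The casein gene Csn1s1 was also called lower (log2 fold change -2.42, adjusted p = 0.0272) but not with the replicate block (0.0737), with limma-voom (0.0814) or without miR-21-KD replicate 1 or 4 (up to 0.0751), and its highest VC tumour, replicate 4 with 39.9 CPM, stood far from the other 3 (3.43 to 13.3 CPM). Without that tumour the log2 fold change of Csn1s1 was -1.51 (adjusted p = 0.0460).

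STAT3 targets that were called included the transcription factor gene Cebpd (log2 fold change 1.43, adjusted p = 0.00571, edgeR), the survival gene Mcl1 (0.67, adjusted p = 0.0108) and, in the other direction, the mitosis and survival gene Birc5 (-1.38, adjusted p = 0.00988). STAT4 targets that rose were Furin (0.60, adjusted p = 0.00922) and the IL-18 receptor gene Il18r1 (1.58, adjusted p = 0.0143). STAT6 targets with the smallest p were Chil3, a product of alternatively activated macrophages (5.32, adjusted p = 0.00523), and the chemokine genes Ccl17 and Ccl22 (3.16 and 1.85, adjusted p = 0.00558 and 0.00571). The summed level of 10 macrophage markers was 2952 to 4266 CPM in VC and 5839 to 9088 CPM in miR-21-KD tumours, with 8 of 10 called higher. Mrc1 stands in both this list and that of the STAT6 targets, and without it the sums were 1646 to 2844 and 2729 to 5080 CPM, which overlap, with 7 of 9 called higher. For 6 dendritic cell markers the sums were 54.8 to 175 CPM in VC and 182 to 342 CPM in miR-21-KD tumours. Of these markers, 2 of 6 were called higher. The part of macrophages and dendritic cells in the results was not tested.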

How the data were processed

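RNA from 4 VC and 4 miR-21-KD tumours had been sequenced, and the authors deposited raw read counts per Entrez gene, without normalization. The submitters' processing notes name Subread, featureCounts, edgeR and limma with mm10, without roles or versions. Symbols were matched for 25275 of 27179 genes. The 10 genes and all gene lists were chosen with earlier results of these data known.

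Counts were tested in R 4.3.3 with edgeR 4.0.16 (TMM, filterByExpr with minimum count 10 and total 15, robust quasi-likelihood test, no block), which left 14382 genes holding 99.852% of counts. Adjusted p-values are those of Benjamini and Hochberg. Named genes were the 10 genes, 6 receptors (Prlr, Ghr, Il2rg, Il4ra, Il6st and Il12rb1) and, in each list, up to 3 called genes per direction with the smallest p and at least 1 CPM on average. Csf2rb was named after its values were seen, as the paralog of Csf2rb2. Ratios of counts (0.5 added) were compared by exact permutation tests. The alternatives were DESeq2 1.42.0, limma-voom (limma 3.58.1), other scalings and filters, a replicate block and each tumour left out. The scripts were checked on simulated counts.

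After group means were removed, same-numbered tumours of the groups correlated at 0.272, 0.421, 0.175 and 0.376. Other combinations had a mean of -0.105. Removing group means ties this value to the others, so it is no separate evidence that the numbers pair the tumours. The labels do not say that they do, and the replicate block was used as an alternative to the main fit. No pair of tumours of a group agreed within sampling noise (chi-square per degree of freedom 12.9 to 76.4). RefSeq positions and sequences were read on GRCm38.p6.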

Additional observations from a re-analysis of the deposited data

Results flagged for a closer look

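Among 100 groups of 4 tumours, 7 had a value far from the other 3 (a gap above Dixon's 95% critical value), where chance gives about 1 in 20. Among the 10 genes this was Jak1 in miR-21-KD replicate 1 (440.8 CPM, the highest). The others in miR-21-KD tumours were Ghr in replicate 4 (94.4 CPM, the highest), Il4ra in replicate 3 (1262 CPM, the highest), Il12rb1 in replicate 3 (6.90 CPM, the lowest) and Mcl1 in replicate 2 (503.4 CPM, the lowest). In VC tumours they were Ptpn1 in replicate 4 (173.2 CPM, the highest) and Il5 in replicate 1 (1.77 CPM, the highest).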

How the results depend on the processing

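Socs2 and Stat5b kept their calls under all alternatives tried, and Jak2 and Cish were called under none. The count of 5 called among the 10 genes was 8 with DESeq2 and ranged from 2 to 6 when a tumour was left out; other settings gave 4 to 7. Calls over all tested genes, 5626, were 6550 with DESeq2, 2936 to 6840 with a tumour left out, and 5112 to 6485 otherwise (5112 and 5545 with a minimum of 10 counts and upper-quartile scaling, where 7 of the 10 were called). For the other pathway genes the count of 58 ranged from 34 to 59 with a tumour left out, and from 51 to 69 otherwise. With the replicate number as a block, 7 of the 10 genes and 65 other pathway genes were called, and 6485 over all tested genes (115% of those without it); the block changed the call of Stat5a, Stat6, Il6st and Csn1s1 and of no other gene named by the rule. Sign-flip tests over same-numbered tumours gave p = 0.5, 0.125, 0.5 and 0.125 for the ratios of Stat5a to Stat5b, Jak3 to Ptprc, Stat4 to Ptprc and Cish to Socs2 (exact test, smallest p possible 0.125). With a tumour left out, the log2 differences of these ratios ranged from -0.23 to -0.08, -0.95 to -0.59, 0.23 to 0.50 and -1.73 to -0.94. Direction turned for Ghr without miR-21-KD replicate 4 (-0.064; range with a tumour left out -0.064 to 0.084) and for Il12rb1 with limma-voom (0.00076) and without VC replicate 4 (0.28; range -0.44 to 0.28). Over the named genes, 66 results lost and 2 gained a call with a tumour left out, and 13 lost and 12 gained one otherwise; the cause was not tested. The 95% intervals of Jak2 and Cish span 0, and their differences were 0.02 and 0.05 without VC replicate 4.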

Other observations

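Some values of ligands that lie outside the rule for named genes were picked after they were seen. The type 2 cytokine genes Il4 and Il13, whose products bind receptors with the Il4ra chain, rose in miR-21-KD tumours (log2 fold changes 1.54 and 2.04, adjusted p = 0.0345 and 0.00953, edgeR), from 1.74 ± 1.27 to 5.10 ± 0.287 CPM and from 4.32 ± 1.88 to 17.8 ± 7.30 CPM (mean ± SD, n = 4 per group). Tslp, an epithelial cytokine whose receptor uses JAK1, JAK2 and STAT5, had 1297, 1091, 1382 and 473 CPM in VC tumours and 43.9, 618, 374 and 227 CPM in miR-21-KD tumours. VC replicate 4 lay below miR-21-KD replicate 2, and the log2 fold change of -1.75 did not pass (adjusted p = 0.0674, edgeR). Each miR-21-KD tumour lay below the VC tumour of the same number, and a fit with the replicate block is not given for Tslp. Its receptor chain Crlf2 rose by 0.91 on the log2 scale (adjusted p = 0.0100). The summed level of 6 B cell markers was 154 CPM in VC replicate 4 and 67.8 CPM in miR-21-KD replicate 4, and between 1.99 and 14.6 CPM in the other 6 tumours.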
